A study of Mus musculus with 18 samples.

Results

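The AP-1 family of transcription factors was described across intestinal eosinophils of 3 genotypes through 10 genes, Fos, Fosb, Fosl1, Fosl2, Jun, Junb, Jund, Atf3, Batf and Batf2. They were taken by gene name and were 10 of the 22708 genes in the table. The epithelium of C57BL/6 mouse small intestine was stripped with warm EDTA, the rest was digested with collagenase, and cells were enriched on anti-CD11b beads and sorted as CD11b+ MHC-II- SiglecF+ SSC-high eosinophils, whose RNA was sequenced in bulk. There were 18 samples, 6 from WT mice, 6 labelled Ahr-/- (loss of the aryl hydrocarbon receptor, AHR) and 6 labelled Ahrr-/- (loss of the AHR repressor), each with 3 females (F1 to F3) and 3 males (M1 to M3). Litter and housing cannot be told apart from genotype for WT and Ahr-/- mice, which shared neither. The methods used here do not describe the Ahrr-/- mice. Total recovered counts were 3842977 to 8149200 (median 6022409) in WT, 6581818 to 10284124 (median 9647589) in samples labelled Ahr-/- and 8788867 to 12046933 (median 10371556) in samples labelled Ahrr-/-, so depth moved with genotype and its part in the differences was not tested.

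AP-1 is a dimer of basic leucine zipper proteins, most often a FOS subunit with a JUN subunit, that binds short palindromic DNA elements. Many of its genes are immediate early genes, transcribed within minutes of growth factor, cytokine or stress signals that pass through MAP kinases, and ATF3 and the BATF proteins are relatives that pair with JUN proteins and can repress or redirect them. In leukocytes AP-1 is known for inducing cytokine and chemokine genes, and tissue dissociation is itself known to induce several members.

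The targeted genes were examined first. Ahr, measured over the whole gene, had variance-stabilized log2 levels of 13.40 to 14.40 (median 13.76) in WT and 14.15 to 14.67 (median 14.55) in samples labelled Ahr-/-, so its transcript was not lower there. Ahrr, itself an AHR target, was at 9.79 to 10.39 in WT and at most at 5.79 (median 5.25) in samples labelled Ahr-/-, where 0 to 10 counts were recovered, a difference of -4.83 (adjusted p = 4.9e-12). The AHR targets Cyp1b1 and Tiparp were lower in those samples too, by differences of -4.07 (adjusted p = 1.9e-08) and -2.60 (adjusted p = 1.6e-07). For Ahrr, Cyp1b1 and Tiparp all 6 samples labelled Ahr-/- lay below all WT samples. In samples labelled Ahrr-/- the Ahrr level was 9.95 to 10.93, overlapping WT, with a difference of 0.28 and an adjusted p of 0.683. Reads summed over a gene cannot reveal the loss of an exon, so these values did not check the Ahrr label, and they checked the Ahr label only through its targets.

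Some libraries stood apart. WT F3, with the lowest total count, had 20244 genes detected and Ahr-/- F3 had 19694, beside 15146 to 17236 in the other 16 samples. Genes with a median normalized count below 1 took 0.736% of the counts in WT F3 and 0.208% in Ahr-/- F3, and at most 0.0761% in the others. In Ahrr-/- F2 the heat shock gene Hspa1a reached a normalized count of 4111 and its cochaperone gene Dnajb1 2912, while WT F1 had 1112 and 1141.

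Compared per kilobase of exon, Fos was the most abundant member. Its mean in WT was 2847 ± 562 normalized counts per kb (SD, n = 6), above 99.1% of 11074 genes with a length, whose median was 59.6. Junb followed with 1027 ± 105 per kb, and the ranges of the WT samples for Fos and Junb did not overlap. Fosb (568 ± 285), Jun (514 ± 213), Fosl2 (407 ± 211) and Atf3 (321 ± 94.4) came next in WT, and each overlapped its neighbour in that order. Jund (104 ± 18.5) and Batf (89.3 ± 29.6) formed a lower pair whose ranges overlapped each other and not those of Atf3 or Batf2. Batf2 (mean 24.1, range 5.77 to 38.6) and Fosl1 (23.3 ± 15.3) were lowest and did not differ beyond their spread. In samples labelled Ahr-/- the mean of Atf3 was 102 ± 36.9 per kb, in the range of Jund (137 ± 53.0) and Batf (101 ± 30.4), whereas in samples labelled Ahrr-/- it was 469 ± 200.

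**Figure D1:**
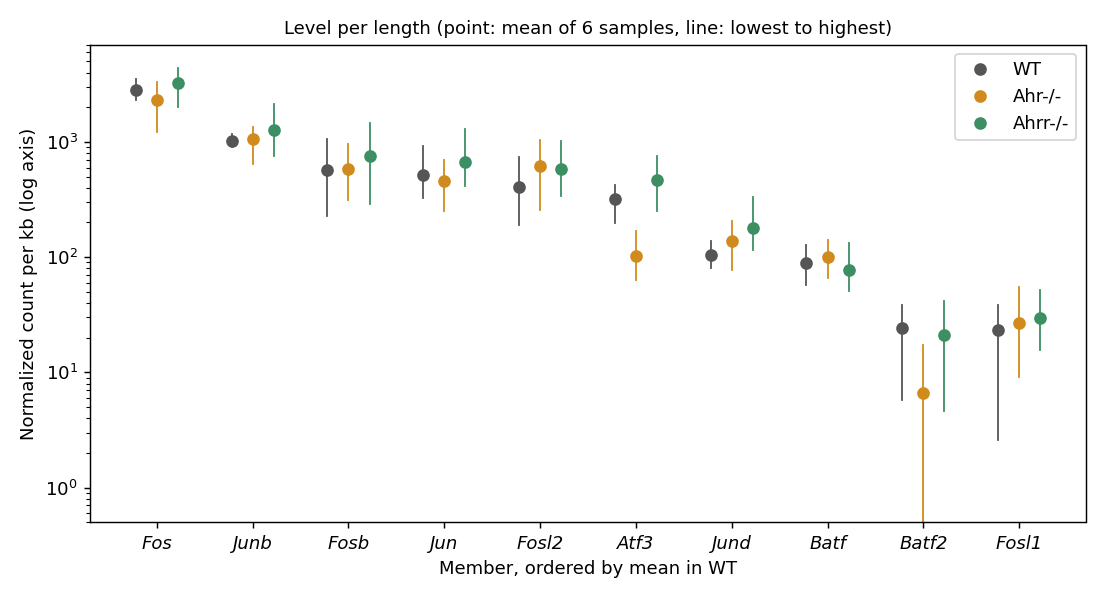
Normalized count per kb of exon (log axis) of each member, ordered by its mean in WT; points are means of 6 samples and lines run from the lowest to the highest sample. Fos was highest in each genotype and Atf3 was lower in samples labelled Ahr-/- than in the other groups; the line of Batf2 labelled Ahr-/- reaches 0, off the log axis.

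The start regions of Fos, the most abundant member, and of Jun and Atf3, which differed by sex or genotype, are given below. RefSeq gave a window, 250 bases before to 50 after the annotated start on GRCm38.p6, for 8 of the 10 members, with none for Fosl1 and Batf2. Capitals mark the AHR response element core GCGTG, read on either strand (CACGC on the other strand).
Fos, chr12:85473640-85473939, plus strand: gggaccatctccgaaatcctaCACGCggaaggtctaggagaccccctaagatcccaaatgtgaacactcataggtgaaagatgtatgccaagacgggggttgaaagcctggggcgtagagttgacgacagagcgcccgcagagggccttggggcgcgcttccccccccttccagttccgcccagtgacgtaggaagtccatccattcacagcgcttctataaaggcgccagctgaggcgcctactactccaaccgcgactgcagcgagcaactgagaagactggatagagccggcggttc
Jun, chr4:95052173-95052472, minus strand: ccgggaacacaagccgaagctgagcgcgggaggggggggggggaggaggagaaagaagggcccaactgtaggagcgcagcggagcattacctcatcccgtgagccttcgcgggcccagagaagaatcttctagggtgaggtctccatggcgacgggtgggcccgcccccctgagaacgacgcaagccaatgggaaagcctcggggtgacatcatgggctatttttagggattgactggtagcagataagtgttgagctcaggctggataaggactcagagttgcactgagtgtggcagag
Atf3, chr1:191183284-191183583, minus strand: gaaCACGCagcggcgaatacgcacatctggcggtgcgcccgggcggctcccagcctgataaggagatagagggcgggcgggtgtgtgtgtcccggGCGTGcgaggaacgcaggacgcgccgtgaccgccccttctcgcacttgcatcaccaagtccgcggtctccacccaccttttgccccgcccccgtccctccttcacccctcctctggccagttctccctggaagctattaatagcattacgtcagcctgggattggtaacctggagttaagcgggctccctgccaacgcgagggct

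The Atf3 window held the GCGTG core at 2 places, 247 and 155 bases before the start, the Fos window held it once, 229 bases before the start, and the Jun window did not hold it. Of 32851 windows of this length, 32.4% held the core at least once and 11.1% held it 2 or more times. Junb also held it 2 times and Fosb once, within the transcribed bases. None of the 8 windows held TGAGTCA or TGACTCA (in 5.20% of all windows), TGACGTCA (1.79%) or a CArG box (1.63%), searched on both strands. Only exact matches inside the windows counted, so variants with a changed base and elements farther upstream were not looked for. These matches describe letters in a short window and say nothing of binding.

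Between samples labelled Ahr-/- and WT, 2 of the 10 members tested passed the threshold (limma with sex as a covariate, Benjamini-Hochberg adjusted p below 0.05 over all genes tested), both lower in Ahr-/-. Over all 11346 genes tested, 8.84% passed and 3.68% passed as lower. The members were Atf3 and Batf2, and 5 members had higher and 5 lower means, of which Junb, at -0.0059, turned to 0.013 with each sample centred on its median. The minimum mean applied to both groups together, and Batf2, with means of 6.38 in WT and 5.69 in Ahr-/-, passed it only through WT. With no minimum mean Atf3 alone passed. The members' median difference was 0.05 beside -0.0041 over all genes tested. The number of genes called, 1003, was 623 without Ahr-/- F1 and 586 with WT F3 and Ahr-/- F3 both left out, an alternative chosen after seeing the data. A single member, Atf3, was called in that last fit and when any 1 sample other than WT M1 was left out (WT F1, F2, F3, M2 or M3, or any of the 6 labelled Ahr-/-), and 3 members without WT M1. The number of genes called without WT M1 is not listed here. In bulk samples, fewer cells of a type and less RNA per cell cannot be told apart.

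Between samples labelled Ahrr-/- and WT, 0 of 10 members passed in limma, 2 of them with an unadjusted p under 0.05. Of all 11546 genes tested 9 passed (0.0779%) and 853 had such a p. With limma voom 4 genes and 0 members passed. Among the fits that left out 1 sample, 4 genes passed without WT F1, F2, M2 or M3, or Ahrr-/- F2, M2 or M3. Without Ahrr-/- F3 5 genes passed and without Ahrr-/- F1 25, with 0 members each time. The gene counts without WT F3, WT M1 or Ahrr-/- M1 are not listed here. Higher means in samples labelled Ahrr-/- were found for 8 of the 10 members, with a median difference of 0.30 beside 0.011 over all genes tested. Of all 11546 genes tested, 5967 had higher means there. Both comparisons share the WT samples.

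Between the knockouts, 1 of 9 members tested, Atf3, passed, beside 14.9% of 11474 genes. Batf2 was below the minimum mean there. The 1708 genes called became 907, 970, 839, 933 and 818 without Ahr-/- F1, F2, M1, M2 and M3, and 2574, 1001 and 923 without Ahrr-/- F1, F3 and M3. Jun joined Atf3 without Ahr-/- F3, Ahrr-/- F1 or Ahrr-/- F3, with adjusted p of 0.0469, 0.0205 and 0.0355.

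**Figure D2:**
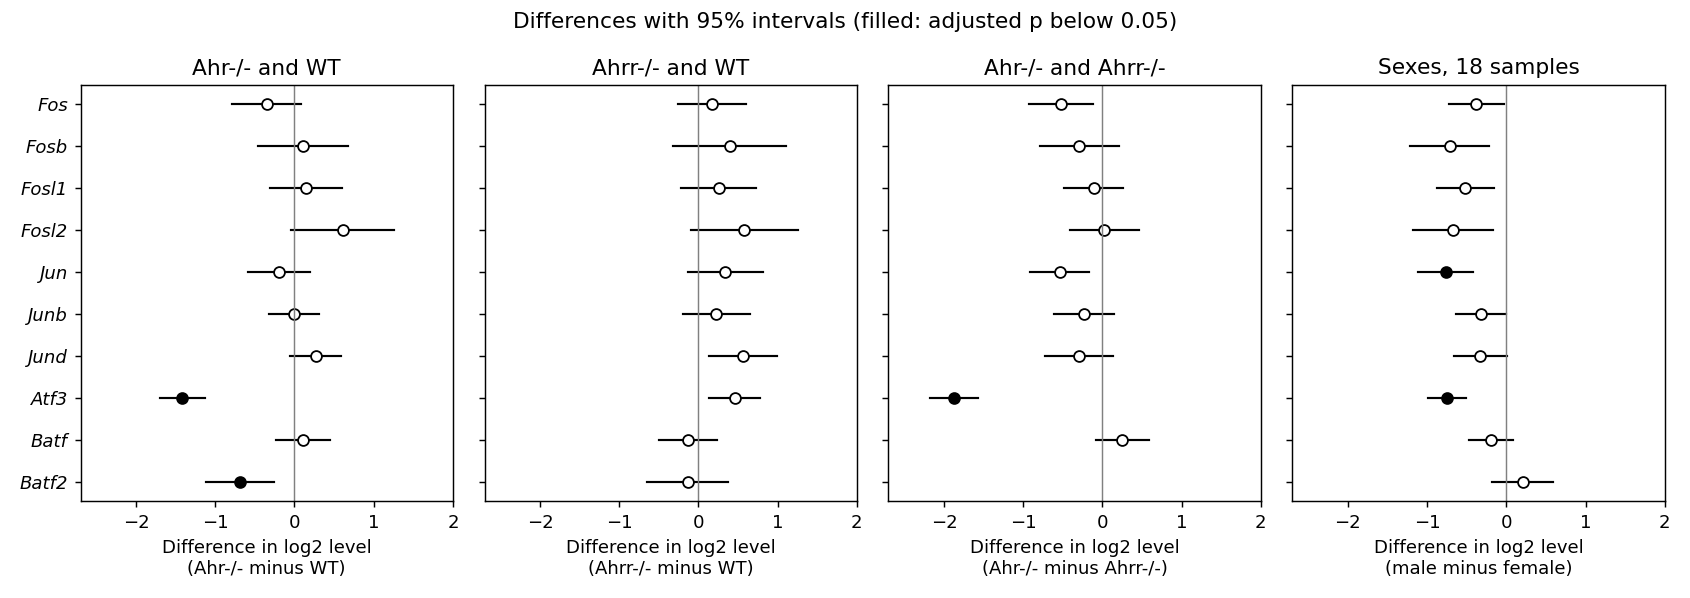
Difference in variance-stabilized log2 level of each member (points) with its 95% interval (lines) in 4 limma comparisons; filled points had an adjusted p below 0.05. Atf3 lay at -1.42 against WT and -1.88 against Ahrr-/-, and 9 of 10 points lay below 0 for males minus females.

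Fos, the founding subunit, had variance-stabilized log2 levels of 12.28 to 12.86 (median 12.50) in WT, 11.37 to 12.77 (median 12.39) in samples labelled Ahr-/- and 12.06 to 13.19 (median 12.75) in samples labelled Ahrr-/-. The groups overlapped, and the lowest samples of all were Ahr-/- M1 and M2. Its difference was -0.35 against WT (95% interval -0.78 to 0.08, adjusted p = 0.321) for Ahr-/- and 0.17 (-0.25 to 0.60, adjusted p = 0.796) for Ahrr-/-. Between the knockouts it was -0.52 (adjusted p = 0.07), which missed the threshold, and it passed with quantile normalization and with array weights. Over the alternatives this p was 0.0209 to 0.179.

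Fosl2, which encodes FRA2, ran from 10.36 to 12.25 (median 11.30) in WT, from 10.76 to 12.76 (median 11.88) in samples labelled Ahr-/- and from 11.16 to 12.71 (median 11.86) in samples labelled Ahrr-/-. WT M1 was the highest WT sample and WT F1 and M3 the lowest, so the WT range covered most of both others. The difference from WT was 0.61 (95% interval -0.05 to 1.26, adjusted p = 0.253) for Ahr-/- and 0.58 (-0.09 to 1.25, adjusted p = 0.671) for Ahrr-/-. Without WT M1 the Ahr-/- difference was 0.90 with an adjusted p of 0.0247, so its side of the threshold rested on that sample; its adjusted p over all alternatives was 0.0247 to 0.451. Fosb, which encodes a subunit induced with Fos, had log2 levels of 9.87 to 12.46 over the 18 samples, and Fosl1, which encodes FRA1, 5.57 to 7.33 with 4 to 157 counts. Neither passed in any genotype comparison, and the Fosb difference between Ahr-/- and WT, 0.10, turned to -0.08 with WT F3 and Ahr-/- F3 left out.

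Jun, the partner that can also pair with itself, had log2 levels of 10.10 to 11.55 (median 10.57) in WT, 9.77 to 11.16 (median 10.38) in samples labelled Ahr-/- and 10.44 to 12.05 (median 10.87) in samples labelled Ahrr-/-. The highest samples were Ahrr-/- F2 and WT F1, the same samples that had the highest Hspa1a counts, and the groups overlapped. The difference between Ahr-/- and WT was -0.20 (adjusted p = 0.549) and between Ahrr-/- and WT 0.34 (adjusted p = 0.69). Between the knockouts it was -0.54 (95% interval -0.91 to -0.17) with an adjusted p of 0.0505, and over the alternatives this p was 0.0173 to 0.237.

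Junb, a JUN subunit gene of the immediate early group, kept to a narrow range in WT, 10.73 to 11.11 (median 10.91), and spread wider in samples labelled Ahr-/-, 10.25 to 11.30 (median 11.002), and Ahrr-/-, 10.48 to 11.93 (median 11.05). All of the WT range lay inside both others. Its difference from WT was -0.0059 for Ahr-/- (95% interval -0.33 to 0.32) and 0.23 for Ahrr-/- (-0.19 to 0.65). Jund, whose transcript is usually less inducible, had log2 levels of 7.60 to 8.18 in WT, 7.56 to 8.68 in samples labelled Ahr-/- and 7.99 to 9.26 in samples labelled Ahrr-/-. Its difference from WT was 0.27 (adjusted p = 0.32) for Ahr-/- and 0.56 (95% interval 0.13 to 0.996, adjusted p = 0.603) for Ahrr-/-.

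Atf3, a stress-induced family member that can repress its own and other promoters (gene 11910 at chr1:191170296-191183333), had log2 levels of 8.93 to 9.94 (median 9.65) in WT, 7.61 to 8.74 (median 8.07) in samples labelled Ahr-/- and 9.25 to 10.73 (median 9.99) in samples labelled Ahrr-/-. All 6 samples labelled Ahr-/- lay below all WT and all Ahrr-/- samples, whereas WT and Ahrr-/- overlapped. Groups did not overlap for 4.51% of genes tested between Ahr-/- and WT and for 4.61% between the knockouts. Counts recovered for Atf3 were 357 to 771 in WT, 161 to 397 in samples labelled Ahr-/- and 809 to 2034 in samples labelled Ahrr-/-. The mean normalized count was 690 ± 203 (SD, n = 6) in WT and 221 ± 79.5 (n = 6) in samples labelled Ahr-/-, a ratio of 0.320.

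The difference of Atf3 between Ahr-/- and WT was -1.42 on the variance-stabilized log2 scale (95% interval -1.70 to -1.14, adjusted p = 3.4e-06), and between Ahr-/- and Ahrr-/- it was -1.88 (-2.18 to -1.57, adjusted p = 1.2e-06). Over the alternatives the first ran from -1.67 to -1.33 and the second from -2.18 to -1.80, and both passed the threshold in each. With WT F3 and Ahr-/- F3 left out the first was -1.40. The comparison of Ahrr-/- with WT gave 0.46 (95% interval 0.14 to 0.78) with an adjusted p of 0.554, which missed the threshold. Within sex, the means of Atf3 were 9.83 in WT and 8.38 in Ahr-/- females, and 9.19 and 7.80 in males, and the samples of the groups did not overlap in either sex.

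Batf, a small family member without a transactivation domain that pairs with JUN proteins (chr12:85686720-85709087), had log2 levels of 6.69 to 7.61 over the 18 samples and 46 to 147 counts. Its groups overlapped, and it passed in no comparison, with differences of 0.11 for Ahr-/- and -0.14 for Ahrr-/- against WT. Batf2, its interferon-inducible relative, was measured at 5.73 to 6.77 (median 6.42) in WT, up to 6.22 (median 5.73) in samples labelled Ahr-/- and 5.66 to 6.84 (median 6.26) in samples labelled Ahrr-/-. These were 8 to 40, 0 to 21 and 6 to 78 counts, Ahr-/- F2 had 0, and the groups overlapped. The difference between Ahr-/- and WT was -0.69 (95% interval -1.11 to -0.26, adjusted p = 0.0442), a scale that understates changes of low genes. The Ahr-/- mean alone was under the minimum mean, and with no minimum the adjusted p was 0.102. Without Ahr-/- F1, F2, F3, M2 or M3 the adjusted p was 0.0889, 0.105, 0.0754, 0.0693 and 0.0774. Without WT F1, F2, F3, M2 or M3, or Ahr-/- M1, the gene was under the minimum mean and was not tested, and without WT M1 the p was 0.00936. Over the alternatives it was 0.00936 to 0.108.

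**Figure D3:**
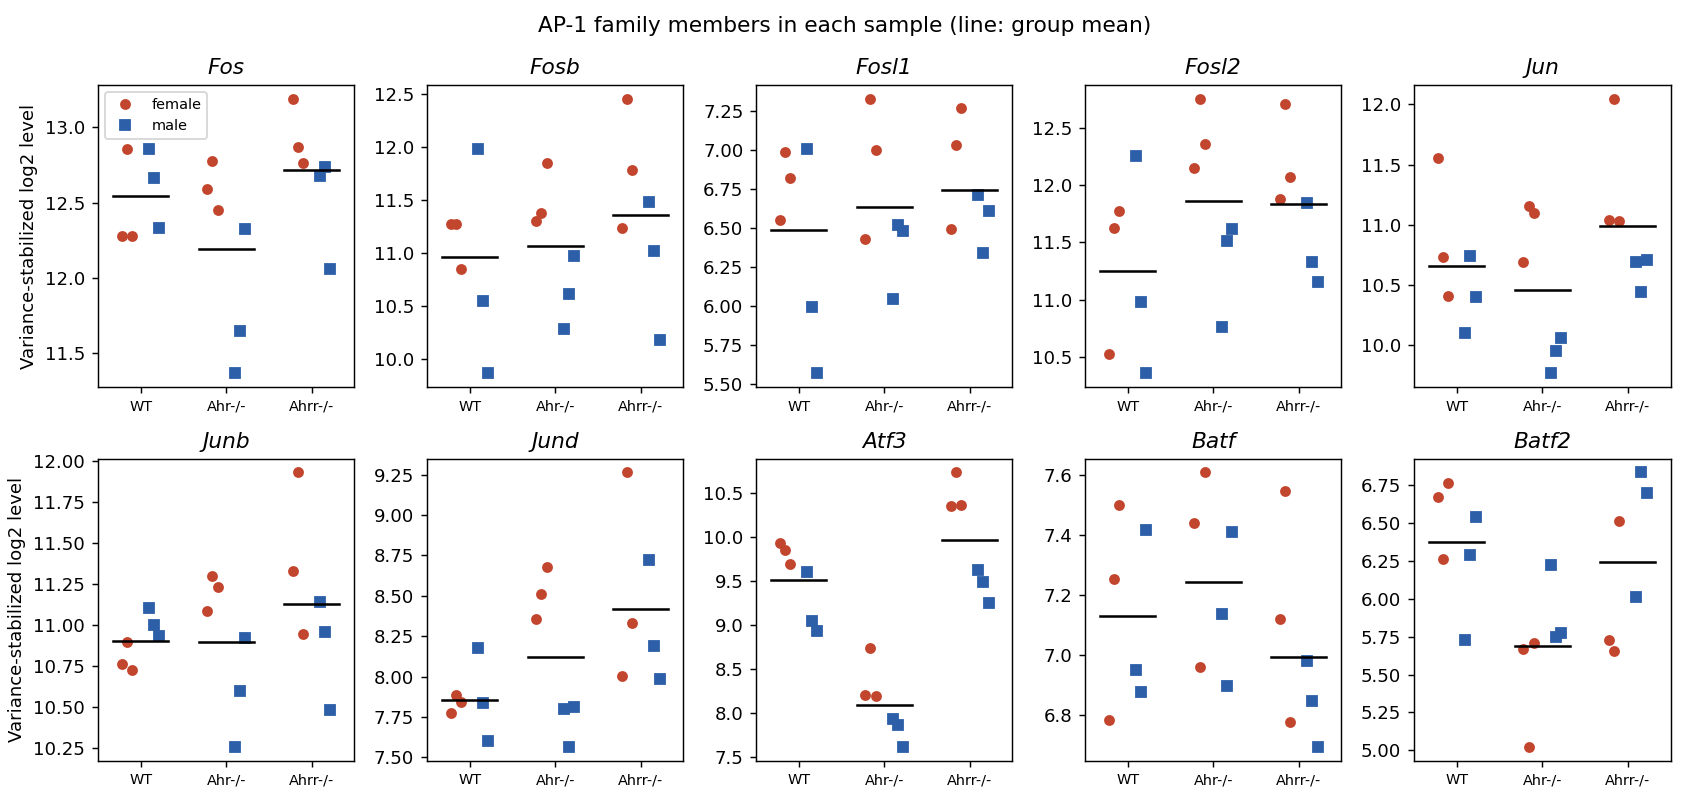
Variance-stabilized log2 level of each member in the 18 samples, with females as circles, males as squares and group means as lines. All 6 Atf3 values labelled Ahr-/- (7.61 to 8.74) lie below those of WT (8.93 to 9.94), and the other members overlap between the genotypes.

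Differences between the sexes were tested as well. Over all 18 samples, with genotype as a covariate, Atf3 and Jun, 2 of 10 members, passed as lower in males, beside 3.06% of 11468 genes in either direction and 2.46% as lower in males. Male minus female differences were -0.75 for Atf3 (95% interval -0.99 to -0.50, adjusted p = 0.00294) and -0.77 for Jun (-1.11 to -0.42, adjusted p = 0.0166). Atf3 females were at 9.94, 9.85 and 9.69 in WT, 8.21, 8.74 and 8.20 labelled Ahr-/-, and 10.35, 10.73 and 10.36 labelled Ahrr-/-. The males were at 9.60, 9.04 and 8.93, at 7.93, 7.87 and 7.61, and at 9.63, 9.49 and 9.25. In each genotype every Atf3 female lay above every male, in 1 of 10 members beside 0.235% of all genes tested, and 0 members had every female below every male (0.157%). For Jun this held in the knockouts, while WT M2 (10.74) lay above WT F2 and F3 (10.73 and 10.41).

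Lower means in males were found for 9 of the 10 members and a higher one for Batf2, with a median of -0.45 beside 0.013 over all genes tested, of which 46.9% were lower in males. Within WT the direction was the other way for Fos (0.15), Junb (0.22, every male above every female), Jund (0.04) and Batf2 (-0.38). With each sample centred on its median, Junb of WT F2 lay above that of WT M3. Fosb (-0.72, adjusted p = 0.111), Fosl2 (-0.67, adjusted p = 0.136) and Fosl1 (-0.52, adjusted p = 0.105) missed the threshold. Without WT M1, the male with the highest Fosb, Fosl1 and Fosl2 in WT, these had adjusted p of 0.00688, 0.0125 (Fosl2) and 0.0204 (Fosl1), and 5 members passed. Fosl2 passed without WT F1 too (0.0298), and 6 members passed with array weights. More genes were called in these fits too than in the reported one, 595 without WT M1 and 733 without WT F1. The 351 genes called became 733, 181, 595 and 160 without WT F1, F2, M1 and M3, and 205, 159, 142, 180 and 211 without Ahr-/- F1, F2, M1, M2 and M3. They became 206, 173, 577 and 188 without Ahrr-/- F1, F2, F3 and M3. Whether the genotype differences depended on sex was tested with limma, and 0 of 11346 genes passed for Ahr-/- and 0 of 11546 for Ahrr-/-, with 533 and 544 at an unadjusted p under 0.05 and 0 by limma voom. Of the 10 members 4 had such a p for Ahr-/- (Junb 0.00231, Jund 0.00306, Fos 0.0117 and Batf2 0.0333) and 2 for Ahrr-/- (Batf2 and Junb). Among members for Ahr-/-, these differences were -1.01 for Fosl2, -0.97 for Fos, -0.83 for Junb, 0.83 for Batf2 and -0.83 for Jund, each with an adjusted p of 0.954. Samples labelled Ahr-/- lay apart from WT in opposite directions in the sexes for 1 of 10 members, Junb, beside 0.203% of genes tested. For Junb this rested on Ahr-/- M3 (10.9215) lying just below WT M3 (10.9294), and median centring made the males overlap. Samples labelled Ahrr-/- lay apart from WT in this way for 0 members (0.251% of genes tested).

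Correlations between members were computed over the 18 samples. Of 45 pairs, 19 had a Pearson correlation with a permutation p below the threshold after Benjamini-Hochberg adjustment, 17 of them positive, and 16 also passed by Spearman. The smallest of these correlations had a size of 0.537, which 17.4% of all 65751778 pairs of genes tested reached, 8.94% as positive. Fosl1 and Fosl2 had r = 0.81 and rho = 0.76 (permutation p = 7e-05 and 0.00041, adjusted 0.00105 and 0.00264), and r = 0.69 without the 2 samples farthest from the median of Fosl1. Within genotypes r was 0.81, 0.91 and 0.68 for WT, Ahr-/- and Ahrr-/-. Fos and Junb had r = 0.78 and rho = 0.80 (permutation p = 0.00014 and 0.00017, adjusted 0.0012 and 0.00225), and r = 0.66 without the 2 samples farthest from the median of Fos. Within genotypes their r was 0.75, 0.97 and 0.71 for WT, Ahr-/- and Ahrr-/-.

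Batf2 ran the other way, with r = -0.69 and rho = -0.74 with Fosl2 (permutation p = 0.00153 and 0.00072, adjusted 0.00689 and 0.00405). That r was -0.65 without the 2 samples farthest from the median of Fosl2, and -0.58, -0.89 and -0.77 within the genotypes. Jun and Fos had r = 0.54 and rho = 0.49 (permutation p = 0.0205 and 0.0405, adjusted 0.0486 and 0.0792). Without the 2 samples farthest from the median of Fos, r was 0.23 and missed the threshold (adjusted permutation p = 0.536). Leaving out extremes also narrows the range of Fos, so this does not tell whether the relation rested on those samples. Within genotypes r of Jun and Fos was -0.37, 0.86 and 0.36, and in WT Jun was negative with Fosl2 (-0.59), Junb (-0.54) and Jund (-0.39) too. Without the 2 samples farthest from the median of each pair's first member, in the order listed at the start, 12 pairs passed. The samples share sex and genotype groups, and after subtracting genotype means 23 pairs passed. Sex means were not subtracted and the permutations did not keep the sexes apart, while 9 of the 10 members had lower means in males. The part of sex in these correlations was not tested.

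**Figure D4:**
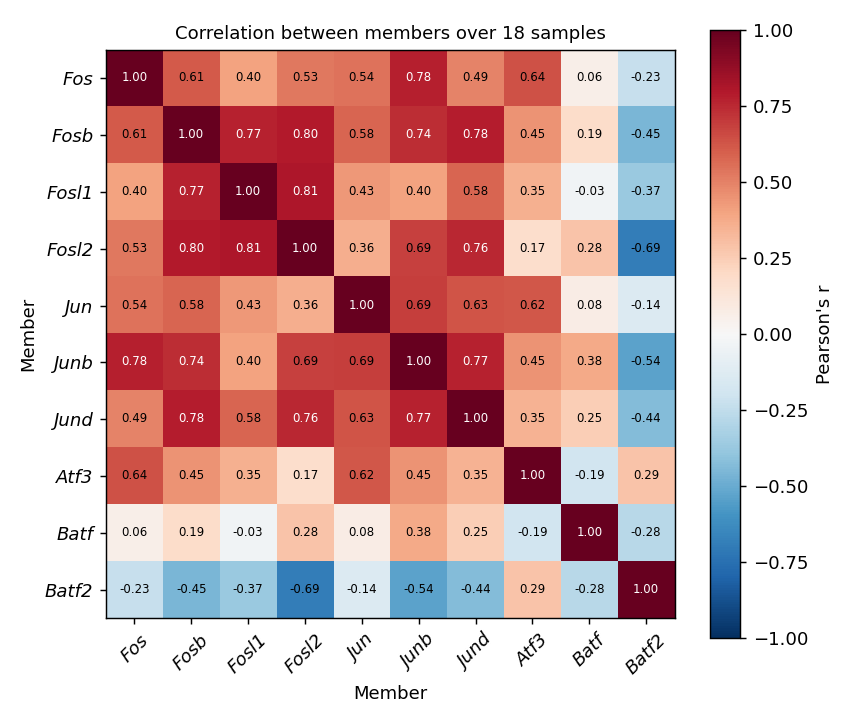
Pearson's r between the variance-stabilized log2 levels of each pair of members over 18 samples, red for positive and blue for negative. Neither genotype nor sex means were subtracted. The FOS and JUN genes form a block of positive values, from 0.36 to 0.81, and Batf2 has negative values with each of them.

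Genes with patterns most like the members' were sought among 5360 more abundant genes, after subtracting genotype means but not sex means, by Pearson's r over 18 samples (Spearman's rho of the genes named was 0.68 to 0.95), as a description with no test. For Fos they included G0s2 (r = 0.93) and Tgfbi (0.90). For Fosl2 they were Plk3 (0.94), Litaf (0.93) and Nr4a2 (0.92), and for Fosb Itprip (0.89), Rhoh (0.89) and Litaf (0.89). The highest for Junb were Csk (0.95), Itm2c (0.95) and Cebpb (0.95), for Jun Nr1h2 (0.91), Nop53 (0.91) and Ube3b (0.85), and for Jund Tagln2 (0.92), Tcn2 (0.89) and Ftl1 (0.89). Atf3 was most like Helz2 (0.95), Cerk (0.92) and Mir22hg (0.91), and Fosl1 most like Rabgef1 (0.83), Aplp2 (0.82) and Nr4a3 (0.82). Batf (Cnpy3 0.78, Tent5c 0.77 and Zfp335 0.77) and Batf2 (Muc4 0.81, Ubfd1 0.80 and Larp1 0.79) had weaker matches.

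Genes around AP-1 were counted by list. The list called dimer partners holds basic leucine zipper genes taken broadly, and whether each pairs with FOS or JUN proteins was not examined. Of 34 other immediate early genes tested between Ahr-/- and WT, 6 were higher and 1 lower, with a median difference of 0.12 beside -0.0041 over all genes tested, of which 5.16% were called higher, 3.68% lower and 8.84% in all. Gadd45g, a stress-induced growth arrest gene, was higher by 1.75 (adjusted p = 4.4e-06), Myc by 0.99, Nr4a1 by 0.92, Dusp6, an ERK phosphatase gene, by 0.85 and Gadd45a by 0.74, and Maff, a small MAF gene, was lower with -0.52. The most abundant of the list were Zfp36, Btg1 and Dusp1, with mean normalized counts of 22595, 21076 and 20501 in WT. Of 15 textbook AP-1 target genes tested, 3 were higher, the cytokine genes Il6 (1.46) and Il1b (1.27) and the chemokine gene Ccl3 (0.83), and 0 lower, with a median of 0.13. Of 32 MAPK inputs tested 2 were higher, among them Map3k3 (0.41), and 0 lower, and of 30 dimer partners Maff alone passed, as lower. Braf, Rps6ka1 and Rps6ka3 were the most abundant MAPK inputs and Nfe2l2, Atf2 and Atf1 the most abundant dimer partners.

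Between the knockouts 8 of 30 dimer partners passed, 7 of them lower in Ahr-/-, with a median of -0.08 beside 0.0026 over all genes tested, of which 14.9% passed. The lower ones included Maf (-0.87), Cebpa (-0.69), Maff (-0.67), Nfe2l2 (-0.66), which encodes NRF2, and Xbp1 (-0.57), and Creb3 (0.33) was higher. Of 32 MAPK inputs 6 were higher, among them Map3k5 (0.61), Braf (0.56), Map3k3 (0.47) and Rps6ka5 (0.42), and Mapk13 (-0.84) was lower. Of 34 immediate early genes 5 were higher (Gadd45g, Myc, Gadd45a, Dusp6 and Nr4a1, by 0.70 to 1.38) and 3 lower (Klf4, Maff and Socs3). Of 15 target genes Il6 (1.34), Il1b (1.297) and Ccl3 were higher and Ccnd1 (-0.84) and Cdkn1a (-0.76) lower. Between Ahrr-/- and WT 0 genes of these 4 lists passed in limma, and 6 dimer partners, 1 MAPK input, 5 immediate early genes and 0 targets had an unadjusted p under 0.05. Their medians were 0.05, -0.06, 0.12 and 0.06.

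Between the sexes, 11 of 34 immediate early genes were lower in males and 0 higher, with a median of -0.45 beside 0.013 over all genes tested, of which 2.46% were called lower. Gadd45b (-1.42, adjusted p = 0.00484), Nr4a3 (-1.26), Nfkbiz (-1.02), Dusp2 (-0.94) and Nr4a1 (-0.91) led them. Of 15 target genes 8 were lower in males and 0 higher, with a median of -0.77, among them Il6 (-1.31), Vegfa (-1.17), Ccl3 (-1.02) and Ccl4 (-0.97). The MAPK substrate kinase gene Mapkapk2 (-0.99, adjusted p = 0.00562) was the one MAPK input that passed, and 4 of 30 dimer partners were lower (Jdp2, Maff, Atf4 and Nfe2l2). Cxcl2, Il1b and Ptgs2 were the most abundant targets, with 31405, 30020 and 18785 mean normalized counts in WT.

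**Figure D5:**
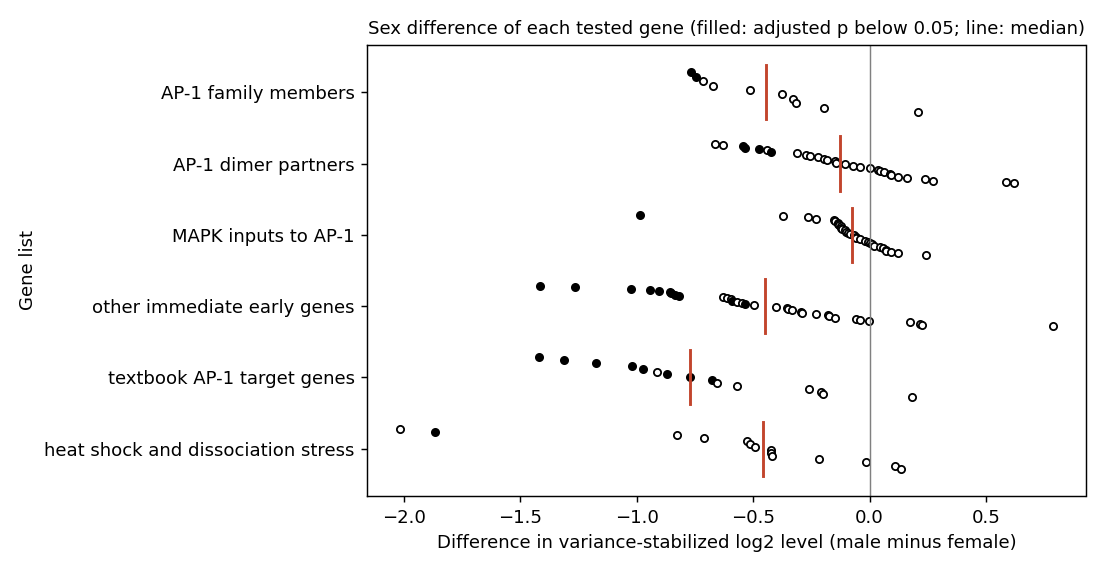
Male minus female difference in variance-stabilized log2 level of each tested gene of 6 lists (filled points had an adjusted p below 0.05), with list medians as lines. Medians were -0.45 for the AP-1 members, -0.45 for other immediate early genes and -0.77 for textbook AP-1 target genes.

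Heat shock and dissociation genes were counted as well. Their summed normalized count was 19031 to 41770 (median 26521) in WT, 17803 to 28226 (median 20850) in samples labelled Ahr-/- and 25156 to 63132 (median 27125) in samples labelled Ahrr-/-, the highest being Ahrr-/- F2. Of 14 tested, Dnajb4 (-0.72) and Hsp90aa1 (-0.63) were lower in Ahr-/- than in WT, with a list median of -0.44, and Hspe1 (-0.80) and Hspd1 (-0.71) were lower in Ahr-/- than in Ahrr-/-. Between the knockouts the means of 13 of 14 were lower in Ahr-/-, with a list median of -0.55 (12 of 14 after median centring). Between Ahrr-/- and WT 0 of 14 passed in limma, 0 of them with an unadjusted p under 0.05. Hspa1b (-1.87) was lower in males, with a list median of -0.46. Hspa8, Hspa5 and Hsp90ab1 were most abundant, and the part of these genes in the differences of Atf3 and Jun was not tested.

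Cell type markers were counted to see what else the sort held. Eosinophil surface and enzyme genes were abundant, with mean normalized counts in WT of 17008 for Itgam, 16772 for Alox15, 12434 for Ccr3 and 2036 for Siglecf, while the granule genes Epx (10.9), Prg3 (1.29) and Ear6 (0.34, 0 in 16 of 18 samples) were near 0. The granule gene Prg2 was higher than these, with 76.9 in WT, 624.8 labelled Ahr-/- and 102.3 labelled Ahrr-/-. The summed eosinophil list was 51620 to 74447 (median 70871) in WT, 71316 to 89310 (median 76901) labelled Ahr-/- and 31941 to 78473 (median 66394) labelled Ahrr-/-. Prg2 (2.30) and Alox15 (0.58) of 9 tested were higher in Ahr-/- than in WT. Between the knockouts 4 of 9 were higher in Ahr-/- (Prg2, Alox15, Il5ra and Siglecf). Of the neutrophil list, Retnlg was most abundant, with means of 35077 in WT, 81840.5 labelled Ahr-/- and 33082 labelled Ahrr-/-. The list, nearly all of it Retnlg, summed to 23736 to 48579 in WT, 54978 to 113331 labelled Ahr-/- and 23838 to 44982 labelled Ahrr-/-. Ly6g, Mpo, Elane and Camp were at 0 in 13, 14, 17 and 13 of 18 samples. Of 5 neutrophil genes tested, Retnlg was higher in Ahr-/- than in WT (1.21) and than in Ahrr-/- (1.29), and S100a8 (2.06) and S100a9 (2.10) were higher in Ahrr-/- than in WT and than in Ahr-/- (-1.73 and -1.69 for Ahr-/- minus Ahrr-/-). Ltf (-0.84) was lower in males.

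Epithelial genes summed to 6835 to 19546 (median 9872) in WT, 7142 to 11045 (median 8260) in samples labelled Ahr-/- and 8997 to 53127 (median 28283) in samples labelled Ahrr-/-, led by Muc2 and Lyz1. All 11 were tested; Muc2 (-1.12) was lower in Ahr-/- than in WT, and Epcam (-1.12), Krt8 (-1.08) and Lyz1 (-1.91) were lower than in Ahrr-/-. Pancreatic acinar genes, led by Ctrb1, summed to 38.1 to 2965 in WT, 13.7 to 358.7 labelled Ahr-/- and 24.7 to 1460 labelled Ahrr-/-, and 3 of 5 tested (Ctrb1, Cela2a and Prss2) were lower in Ahr-/- than in WT. Amy2a5 was at 0 in 13 of 18 samples. Macrophage genes, led by Csf1r, summed to 804.9 to 961.2, 962.4 to 1388 and 718.0 to 1642 in the same order, and dendritic cell genes, led by Cd74, to 731.9 to 2247, 300.6 to 3393 and 612.7 to 5145. Csf1r (0.49) was the 1 macrophage gene of 5 tested that passed between Ahr-/- and WT, as higher, and 0 of 4 dendritic cell genes passed in limma, 1 with an unadjusted p under 0.05 (beside 2638 of all 11346 genes tested). Between the knockouts C1qb was lower in Ahr-/-. Means there were lower in Ahr-/- for 11 of 11 epithelial genes (median -1.01), 5 of 6 macrophage genes (-0.68) and 4 of 4 fibroblast genes (-1.11). In limma 8, 5 and 4 of them had an unadjusted p under 0.05, beside 3760 of all 11474 genes tested. Of 9 eosinophil means 8 were higher in Ahr-/- there (0.40). The dendritic cell gene Itgae (0.47) was higher in Ahr-/- than in Ahrr-/-, while the means of the other 3 were lower (list median -0.52), and H2-Ab1 (1.34) was higher in males. Mertk and C1qc, H2-Ab1 and Zbtb46, and Cela1 and Cpa1 came next in abundance in the macrophage, dendritic cell and acinar lists.

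The plasma cell gene Jchain, lower in Ahr-/- than in Ahrr-/- (-3.20), led the B and plasma cell list, which summed to 234.1 to 1774 in WT, 104.6 to 746.1 labelled Ahr-/- and 334.4 to 6045 labelled Ahrr-/-. T cell genes, led by Cd4, summed to at most 150.7, mast cell genes, led by Kit, to at most 538.0 and fibroblast genes, led by Col3a1, to at most 1626 in any sample, and of the 1, 1 and 2 tested between Ahr-/- and WT 0 passed in limma and 0 had an unadjusted p under 0.05. Of the 3 B and plasma cell genes 0 passed there and 1 had such a p. Kit (-0.94) was lower in males, and Col1a2 (-1.09) and the endothelial gene Cdh5 (-0.70) were lower in Ahr-/- than in Ahrr-/-. Next in abundance were Cd79b and Cd79a, Cd3e and Lck, Cpa3 and Mcpt1, Col1a1 and Col1a2, and Vwf and Kdr in the plasma cell, T cell, mast cell, fibroblast and endothelial lists. The endothelial list, nearly all of it Pecam1, which eosinophils also express, summed to 2568 to 3803 in WT, 1871 to 2329 labelled Ahr-/- and 1738 to 3810 labelled Ahrr-/-. Pecam1 was lower in Ahr-/- than in WT (-0.63). Between Ahrr-/- and WT, marker means were higher in Ahrr-/- for 11 of 11 epithelial genes (median 0.76), 6 of 6 macrophage genes (0.67), 4 of 4 fibroblast genes (0.95) and 3 of 3 B and plasma cell genes (0.44, 2 of 3 after median centring). Among them limma called 0, and 5, 3, 3 and 2 had an unadjusted p under 0.05. Pancreatic acinar means were lower in Ahrr-/- than in WT for 5 of 5 genes (median -1.01) and eosinophil means for 7 of 9 (-0.29, with 2 higher). Of these 2 lists limma called 0, and 3 and 1 had such a p. By sex, marker means were higher in males for 10 of 11 epithelial genes (median 0.50, 11 of 11 with quantile normalization) and 5 of 6 macrophage genes (0.47). Limma called 0 of these, with 2 of each list, and 2145 of all 11468 genes tested, at an unadjusted p under 0.05. For dendritic cell genes the means were higher in males in 4 of 4 (0.56), but in 2 of 4 with each sample centred on its median and 3 of 4 with quantile normalization. For neutrophil genes they were lower in males in 5 of 5 (-0.67), and in 4 of 5 with quantile normalization. The part of these cells in the differences of the AP-1 members by genotype or sex was not tested.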

How the data were processed

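The authors deposited variance-stabilized log2 values (DESeq2) for 22708 genes in 18 samples. Per the submitters' notes and methods, reads were aligned with STAR 2.5.2, quantified with RSEM 1.3.0 on GRCm38 and processed in R 4.0.3. cDNA was amplified (NuGEN Ovation) and read single-end. The lowest value, 5.0212, is a count of 0; inverting the transformation gave whole counts for 100.0% of values (tolerance 0.0001), whose totals are the depth per sample. All per-sample columns were used. Genes were named by RefSeq symbol.

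Genes with a mean at least 1 above the lowest value were fitted with limma 3.58.1 (R 4.3.3; mean-variance trend, sex as covariate, 2-sided) and adjusted by Benjamini-Hochberg; the code was tested on simulated data. Correlations used 100000 2-sided permutations. Lists are described by counts and medians. The members and lists were chosen with earlier results of these data known. Named genes were the members, Ahr, Ahrr, Cyp1b1, Tiparp, the called genes of each list (up to 5 each way), the 3 most abundant of each list or cell type, and the 3 genes most like each member, though not every gene that met this rule is named; Epx, Prg3, Ear6, Siglecf, Ly6g, Mpo, Elane, Camp, Amy2a5, Hspa1a and Dnajb1 were added after their values were seen. Alternatives were other minimum means, median centring, quantile normalization, no or robust trend, array weights, no sex term, all 18 samples, a replicate block, log2(count + 1), log2(count + 8), limma voom and each sample left out; leaving out WT F3 and Ahr-/- F3 together was chosen after seeing the data. No pair of samples of a group agreed within sampling noise.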

Additional observations from a re-analysis of the deposited data

Results flagged for a closer look

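Jun in Ahrr-/- F2 was 12.05 on the variance-stabilized log2 scale, far above the other 5 samples of its group, which lay at 10.44 to 11.04. The gap was large for the range of the group, in 1 of 30 groups of 6 examined, and chance gives such a gap in about 1 group in 20. This sample also had the highest Hspa1a and Dnajb1 counts.

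The Junb samples labelled Ahr-/- lay on opposite sides of WT in the sexes. All 3 females labelled Ahr-/- (mean 11.20) lay above the WT females (10.80) and all 3 males (10.59) below the WT males (11.01), and 23 of 11346 genes tested (0.203%) were apart in opposite directions in this way. The nearest males were Ahr-/- M3 at 10.9215 and WT M3 at 10.9294. With each sample centred on its median (7.8799 and 7.9268), Ahr-/- M3 lay above WT M3, so the males overlapped. The difference in males minus that in females was -0.83 (95% interval -1.31 to -0.35) and limma gave an adjusted p of 0.954, which missed the threshold, so a difference between the sexes was not shown.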

How the results depend on the processing

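Of the differences of single members under the alternatives, 1045 kept their direction and side of the threshold, 21 passed only under an alternative, 11 passed only in the reported fit and 19 changed sign; the cause was not tested. The differences of Atf3 between Ahr-/- and WT, between the knockouts and between the sexes passed in every alternative that was run.

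Between Ahr-/- and WT, 1 member passed, not 2, with no minimum mean, a minimum mean of 3, array weights, all 18 samples, log2(count + 1), limma voom, or WT F3 and Ahr-/- F3 left out (chosen after seeing the data). Genes called were 553 with all 18 samples and 586 without those libraries. Leaving out 1 sample gave 1 to 3 members and 623 to 1124 genes. Between Ahrr-/- and WT, genes called were 4 with no minimum mean, median centring, log2(count + 1) or limma voom, 5 with a minimum mean of 3 or quantile normalization, 14 with all 18 samples and 18 with array weights, and 4 to 25 with 1 sample left out. Between the knockouts, 3 members (Atf3, Fos and Jun) passed with quantile normalization or array weights, and 2 (Atf3 and Jun) with log2(count + 1), log2(count + 8), limma voom, or Ahr-/- F3 (alone or as one of the pair above, the same fit here), Ahrr-/- F1 or Ahrr-/- F3 left out. Except for the fits without Ahrr-/- F1 or F3, the genes called there are not listed here. The added members thus have no share of all genes beside them. Leaving out 1 sample gave 1 to 2 members and 818 to 2574 genes, a minimum mean of 3 gave 828 genes and no sex term 994. Between the sexes, genes called were 163 with no minimum mean and 1310 with array weights, which called 6 members, and leaving out 1 sample gave 142 to 733 genes and 2 to 5 members. Without the 2 samples farthest from the median of the first member of each pair, 12 pairs of members correlated past the threshold, not 19.

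These differences changed sign. Junb between Ahr-/- and WT was 0.01274 with median centring and 0.02228 to 0.1151 without WT M1, M2 or M3 or Ahr-/- M1 or M2 (-0.07266 to 0.1151 over all samples left out in turn). Fosb was -0.07786 without WT F3 and Ahr-/- F3, and -0.07431 and -0.003754 without WT M3 and Ahr-/- F3 (up to 0.3965 without WT M1). Batf2 between Ahrr-/- and WT was 0.1289 with array weights. Fosl2 between the knockouts was -0.05709 with quantile normalization and -0.06884 to -0.003756 without Ahr-/- F2, M2 or M3 or Ahrr-/- F1, F3 or M3 (up to 0.1643 without Ahr-/- M1). The sex dependence of the Atf3 difference between Ahr-/- and WT was -0.03305 with log2(count + 1) and -0.05443 with limma voom. None of these passed the threshold on either side.

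With the replicate label as a block, 1 member passed between Ahr-/- and WT, 4 genes between Ahrr-/- and WT and 2 members (Atf3 and Jun) between the knockouts. Deviations of samples with the same label correlated at -0.27 to 0.47 between WT and Ahr-/-, -0.59 to 0.33 between WT and Ahrr-/- and -0.34 to 0.33 between the knockouts, so the labels did not pair the samples.

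The median total count was lower in WT (6022409) than in samples labelled Ahr-/- (9647589) or Ahrr-/- (10371556). Fosl1 had 4 to 157 counts and Batf2 0 to 78, and what differences this depth allows to be detected was not tested.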
